A study of Aedes aegypti with 8 samples.

Results

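The midgut trypsins and chymotrypsins of Aedes aegypti were examined in midguts exposed to heme. The set was given as 10 gene identifiers: early trypsin (AAEL007818), late trypsin (AAEL013284), chymotrypsin (AAEL003060), JHA15 (AAEL001703) and 6 midgut serine proteases. Of these 10, 8 were rows of the count table of 19712 identifiers, and all 8 passed the filter on low counts that left 11095 genes for testing. The serine proteases AAEL010195 and AAEL010203 were not analysed here. Midguts came from sugar-fed females of 3 to 5 days and were kept ex vivo for 35 h in Schneider's Drosophila medium. The medium of both groups held penicillin-streptomycin and L-glutamine but no fetal bovine serum, with either 10 µM heme or 0 µM heme as the reference. Each group had 4 biological replicates, each a pool of 30 midguts, so the libraries show pooled tissue that had not digested a blood meal.

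Trypsins cleave proteins after lysine or arginine, and chymotrypsins after large aromatic residues. In the female mosquito both are secreted by the midgut epithelium and digest the protein of the blood meal, which also frees heme from hemoglobin. Early trypsin mRNA is made after adult emergence under juvenile hormone and is translated when blood is taken, whereas the late trypsin gene is transcribed after the blood meal and supplies much of the later proteolysis. JHA15 is a midgut protease gene that responds to juvenile hormone.

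Total counts were 50531043 to 56947544 in the 10 µM heme libraries and 46027977 to 54897568 in the 0 µM heme libraries. Replicate 1 of the 0 µM group was the shallowest. In RefSeq's gene table of AaegL5.0, 0 of the identifiers were found, so markers of other tissues could not be looked up, and no gene lengths were at hand. Counts are therefore compared between libraries and not as levels between genes.

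Early trypsin, chymotrypsin and JHA15 dominated the counts of the set. After scaling of the libraries, none of them differed between treatments by more than the spread of the replicates. The 8 genes together took 16.2%, 17.1%, 16.1% and 15.0% of all counts in 10 µM heme replicates 1 to 4, against 17.5%, 18.5%, 16.3% and 17.2% in 0 µM heme replicates 1 to 4. The ranges of the groups overlapped, and the largest 95% Wilson interval on these shares was ± 0.011 percentage points, which covers counting error only. The overlap depended on chymotrypsin. Without it the unscaled share, lower by construction, was 6.85% to 7.91% at 10 µM and 7.96% to 8.73% at 0 µM heme. The other 5 genes added 0.0191% to 0.0289% of counts at 10 µM and 0.00564% to 0.0261% at 0 µM heme. The unscaled share of early trypsin alone did not overlap. It was 6.51%, 6.19%, 6.01% and 5.55% at 10 µM and 7.03%, 6.79%, 6.53% and 6.58% at 0 µM heme. With library totals as the scale, its log2 fold change was -0.15 (edgeR exact test, adjusted p = 0.912), where the median of all genes was -0.07. After scaling, early trypsin overlapped between the groups. How many of all genes did not overlap in unscaled share was not counted, so these gaps are not read as particular to the set.

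**Figure D1:**
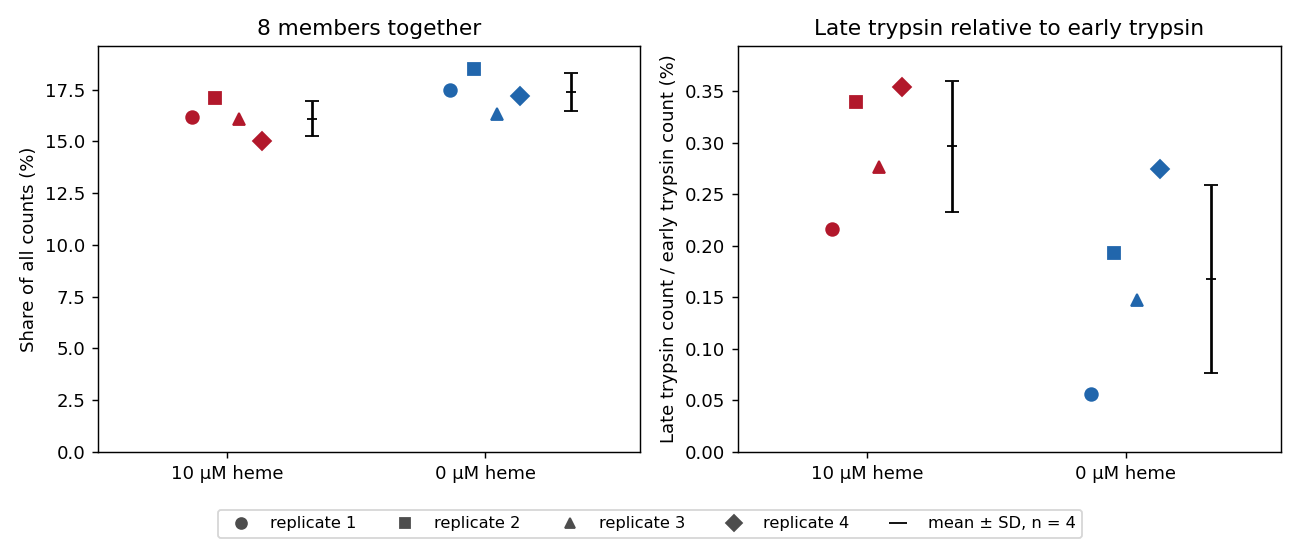
Left, percent of all counts on the 8 trypsins and chymotrypsins in each library, and right, the late trypsin count as a percent of the early trypsin count, for 10 µM and 0 µM heme midguts. Points are libraries, with the mean ± SD of 4 replicates beside them, and the share lies between 15.0% and 17.1% at 10 µM heme and between 16.3% and 18.5% at 0 µM heme.

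Chymotrypsin ranked 2 among all identifiers by mean share of counts. Its raw counts were 4450507, 5280237, 4338255 and 4639482 at 10 µM heme and 4030957, 5549310, 4381547 and 4942857 at 0 µM heme. Relative to the library total after TMM scaling (CPM), it averaged 89372 ± 9476 at 10 µM and 88200 ± 6456 at 0 µM heme (SD, n = 4 each). All 0 µM values lay within the 10 µM range. The difference, 10 µM minus 0 µM, was a log2 fold change of 0.02 ± 0.10 (SE, 4 libraries per group; edgeR's exact test, adjusted p = 1.0). The 95% interval from limma-voom was -0.17 to 0.22 on the log2 scale.

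Early trypsin ranked 4 by share. It had 76760, 61123, 62571 and 51890 CPM in the 10 µM heme libraries, against 71456, 63097, 63213 and 63533 CPM in the 0 µM heme libraries. The 10 µM libraries held both the highest and the lowest value, and replicate 1 was highest in each group. The difference was -0.05 ± 0.12 on the log2 scale (SE, 4 libraries per group; edgeR's exact test, adjusted p = 0.99), with a limma-voom 95% interval of -0.25 to 0.16.

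JHA15, at rank 8, had 16302, 13236, 15848 and 11926 CPM at 10 µM heme and 17300, 12459, 13562 and 15608 CPM at 0 µM heme. Its log2 fold change was -0.04 ± 0.15 (SE, 4 libraries per group; edgeR's exact test, adjusted p = 0.998), with a limma-voom 95% interval of -0.26 to 0.28. The groups overlapped here too. For these 3 genes the intervals excluded a change of 2-fold in either direction.

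The counts of chymotrypsin and early trypsin were repeated at other identifiers. AAEL019480, at rank 1, differed from chymotrypsin by at most 0.0333% in any library, and AAEL019596, at rank 3, from early trypsin by at most 0.0534%. With these partners included, the share was 28.7% to 32.8% at 10 µM and 31.1% to 35.7% at 0 µM heme. Whether the same reads were counted at both identifiers of a pair was not tested, so the counts of both enzymes are uncertain as numbers of molecules. No such partner was found for JHA15, late trypsin or the other 4 serine proteases.

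Late trypsin had far fewer counts than early trypsin, not corrected for length, and varied more between libraries. It had 166, 208, 173 and 184 CPM in the 10 µM heme libraries, against 40.0, 122, 93.4 and 175 CPM in the 0 µM heme libraries. Of the 0 µM libraries 3 lay below all 10 µM libraries, whereas replicate 4 lay inside their range. The means were 183 ± 18.3 CPM at 10 µM and 107 ± 56.2 CPM at 0 µM heme (SD, n = 4 each). The log2 fold change of 0.77 ± 0.46 (SE, n = 4 per group) did not pass (edgeR exact test, p = 0.0328, adjusted p = 0.293), and the limma-voom 95% interval was -0.06 to 1.23. The size of the fold change depended on single libraries, and its sign did not. The fold change was 0.49 without 0 µM heme replicate 1 (adjusted p = 0.252) and 1.10 without 0 µM heme replicate 4, where it passed (adjusted p = 0.0387).

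As a measure that needs no scaling of the libraries, the late trypsin count was taken as a percent of the early trypsin count. It was 0.216%, 0.340%, 0.277% and 0.354% at 10 µM heme and 0.0560%, 0.193%, 0.148% and 0.275% at 0 µM heme. The groups overlapped through 10 µM replicate 1 and 0 µM replicate 4. In pooled tissue, fewer cells that make an enzyme and less of its RNA per cell cannot be told apart.

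The 4 remaining serine proteases carry no further name in the sources used here, so no individual role is given. AAEL010202 had the lowest counts of the set and the highest fold change. Its counts were 109, 93, 197 and 138 at 10 µM heme and 15, 80, 103 and 62 at 0 µM heme. In CPM this was 2.59 ± 1.03 at 10 µM and 1.18 ± 0.653 at 0 µM heme (SD, n = 4 each). Only 0 µM replicate 3 (1.89 CPM) reached into the 10 µM range, above 10 µM replicate 2 (1.66 CPM). The log2 fold change of 1.14 ± 0.58 (SE, n = 4 per group) did not pass over all genes (edgeR exact test, p = 0.0138, adjusted p = 0.17). Its limma-voom 95% interval of 0.26 to 1.99, not adjusted for the number of genes, lay above 0, but that test did not pass either (adjusted p = 0.136). The count of 15 in 0 µM replicate 1 has an exact Poisson 95% interval of 8.4 to 24.7, and without that library the log2 fold change was 0.83 (edgeR exact test, adjusted p = 0.186).

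AAEL010196 had 23.7, 46.7, 36.0 and 30.2 CPM at 10 µM heme, against 10.8, 32.1, 19.8 and 38.6 CPM at 0 µM heme. Replicate 1 was lowest in each group, and the groups overlapped. This gave a log2 fold change of 0.43 ± 0.46 (SE, 4 libraries per group; edgeR's exact test, adjusted p = 0.766), with a limma-voom 95% interval of -0.35 to 0.99. Without 0 µM heme replicate 1 it was 0.18.

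AAEL013712 had 6.98, 11.3, 12.3 and 9.29 CPM at 10 µM heme, against 1.92, 10.3, 8.68 and 9.63 CPM at 0 µM heme. Replicate 1 was again lowest in each group. The log2 fold change was 0.39 ± 0.60 (SE, 4 libraries per group; edgeR's exact test, adjusted p = 0.871), with a limma-voom 95% interval of -0.38 to 1.06, and it was 0.07 without 0 µM heme replicate 1. For both AAEL010196 and AAEL013712 the interval took in 0 as well as increases near 2-fold.

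AAEL007432 was set by a single library. It had 26.1, 18.0, 63.7 and 23.3 CPM at 10 µM heme, against 4.29, 11.9, 129 and 12.8 CPM at 0 µM heme. Replicate 3 was highest in each group, and the other 3 libraries at 0 µM lay below all 10 µM libraries. With all libraries the log2 fold change was -0.27 (edgeR's exact test, adjusted p = 0.985). The SE of the difference in mean log2 CPM, which is another estimate than this fold change, was 1.11 (4 libraries per group). The limma-voom estimate, which weights libraries by quality, was 0.86 with a 95% interval of -0.85 to 2.56. Without 0 µM heme replicate 3 the log2 fold change was 1.76 and passed (edgeR exact test, adjusted p = 0.0295).

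**Figure D2:**
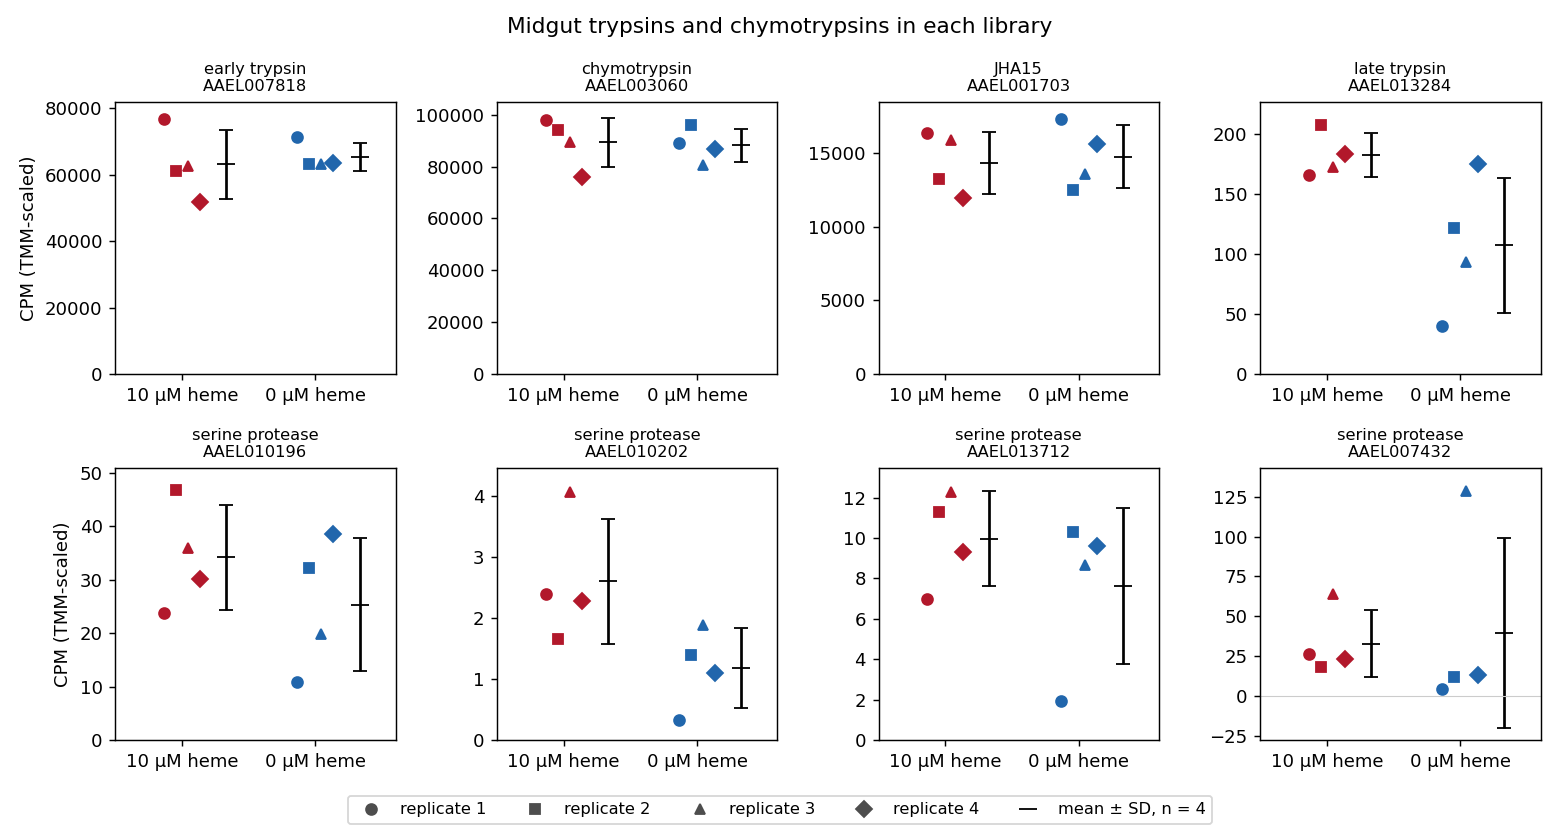
CPM of each gene in every library, on linear axes from 0 (AAEL007432 extends below 0 to hold its SD bar), with 10 µM heme left of 0 µM heme, symbols for the replicate number and the mean ± SD of 4 libraries. All 8 genes overlap between treatments, and the 0 µM heme value of AAEL007432 in replicate 3, 129 CPM, stands apart from the other 3 at 4.29 to 12.8 CPM.

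In all, 0 of the 8 genes were called at an adjusted p of 0.05 in the edgeR exact test, beside 4.63% of the 11095 genes tested, 2.22% higher and 2.42% lower with heme. At an unadjusted p under 0.05 there were 2 of 8, late trypsin and AAEL010202, beside 13.3% of all genes. The other tools also called 0 of 8, with 1 at an unadjusted p under 0.05 in the edgeR quasi-likelihood test (15% of all genes), 3 with a replicate block in that test (22% of all genes), 2 in DESeq2 (15.3%) and 1 in limma-voom (19.9%). No gene of the set had groups that did not overlap in CPM (0 of 8), which was the case for 10.2% of all genes. The median log2 fold change was 0.20 over the set and 0.02 over all genes tested, with 5 of 8 values above 0. In simulated counts of this design with genes changed 2-fold, the exact test recovered 68.8% of them, at the dispersions of all genes and not those of this set.

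**Figure D3:**
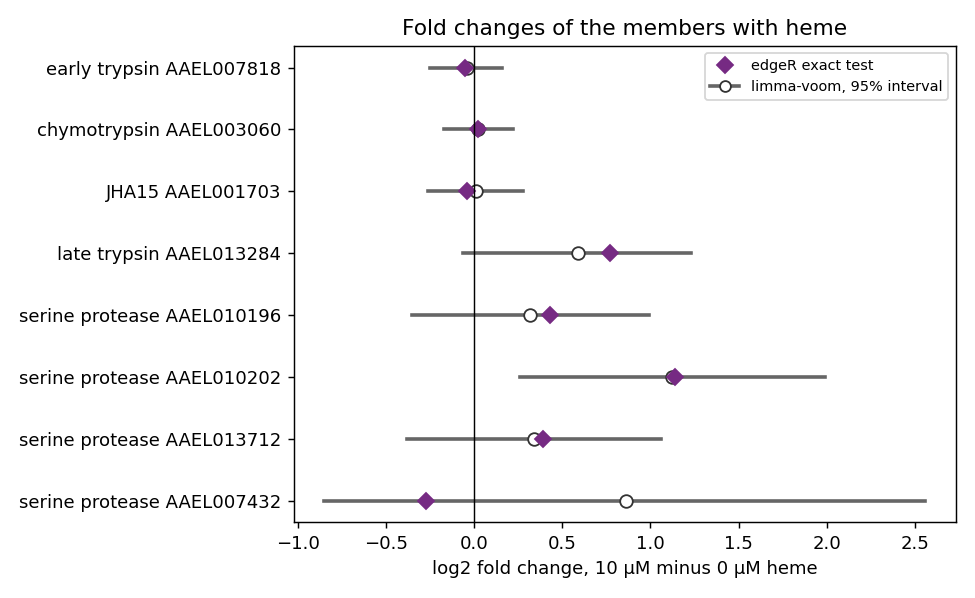
Log2 fold change, 10 µM minus 0 µM heme, of each gene in the edgeR exact test (diamonds) and in limma-voom with quality weights (circles, with 95% intervals not adjusted for the number of genes). The intervals of early trypsin, chymotrypsin and JHA15 lie within -0.26 to 0.28, whereas those of the other 5 genes are wider and that of AAEL007432 reaches 2.56.

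The genes with few counts had more biological variation than most. The coefficient of biological variation in edgeR was 34.8% for late trypsin, 35.5% for AAEL010196, 41.6% for AAEL013712, 43.1% for AAEL010202 and 84.5% for AAEL007432, beside a median of 18.5% over all genes tested. These values lay above those of 91.3% to 99.4% of genes. Chymotrypsin, early trypsin and JHA15 were nearer the median, at 19.9%, 20.8% and 21.4%.

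In 4 of these 5 genes the library farthest from its group mean was replicate 1 of the 0 µM group, and in AAEL007432 it was replicate 3. The log2 deviations of the 5 genes from their group mean in 0 µM replicate 1 were -1.99 (AAEL007432), -1.71 (AAEL013712), -1.49 (AAEL010202), -1.24 (late trypsin) and -1.07 (AAEL010196). Deviations as low as these were found there in 0.144% to 1.51% of genes tested. The 3 abundant enzymes lay 0.02 to 0.24 above their group means in the same library. It also had the lowest total count. Its median absolute deviation over all genes was the largest (0.228, against 0.104 to 0.21 in the other 7 libraries). In the study's multidimensional scaling plot this library was marked as not clustering with its group. The part of these differences in the results was not tested.

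**Figure D4:**
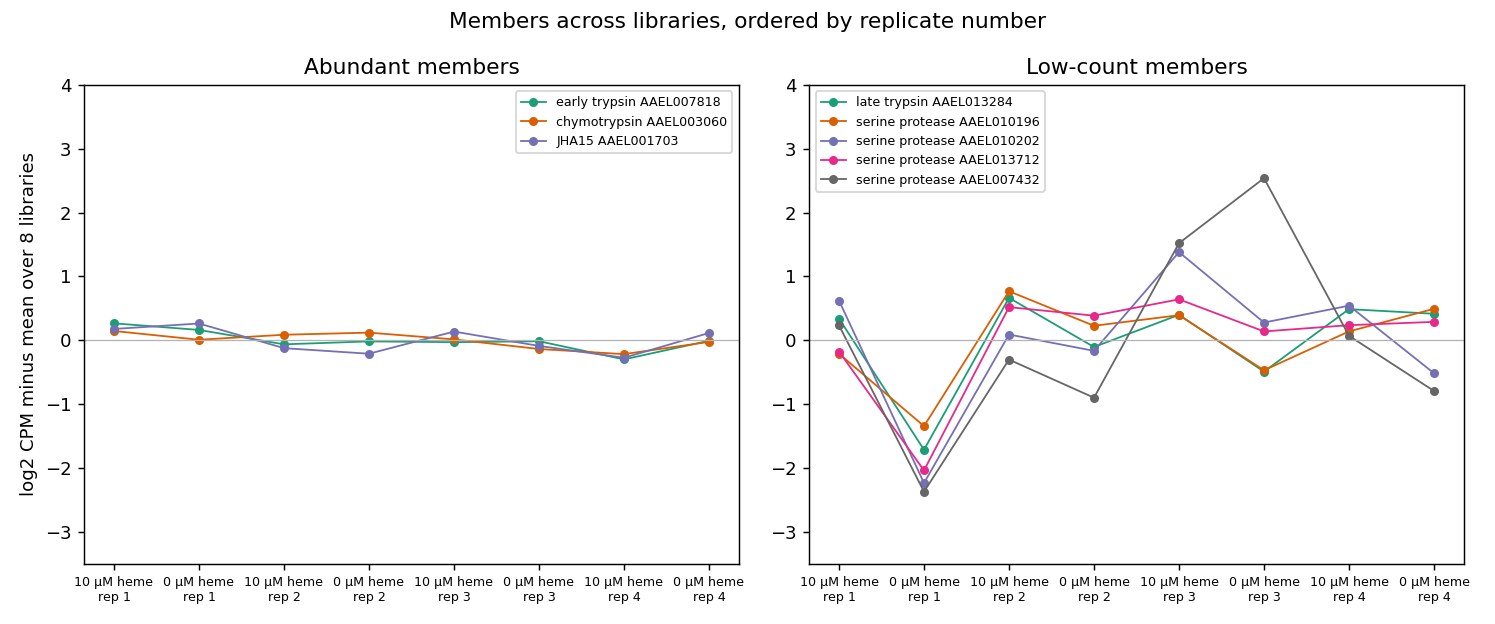
Log2 CPM of each gene minus its mean over 8 libraries, with libraries ordered by replicate number and 10 µM heme left of 0 µM heme within each number. The left panel holds the 3 abundant genes, which stay near 0, and the right panel the 5 genes with few counts, all lowest in 0 µM heme replicate 1.

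Among the genes with few counts, the highest correlations over the 8 libraries were those of late trypsin, AAEL010196 and AAEL013712. Pearson's r of log2 CPM was 0.92 between late trypsin and AAEL010196, 0.88 between late trypsin and AAEL013712 and 0.90 between AAEL010196 and AAEL013712. Without 0 µM heme replicate 1 these were 0.74, 0.27 and 0.73, and without replicate 1 of both groups 0.86, 0.55 and 0.71. AAEL010202 correlated with late trypsin at 0.78 over 8 libraries but at 0.14 without 0 µM heme replicate 1. Its r with AAEL007432 was 0.78, and 0.60 without that library. These are descriptions over few libraries, and the points share library, depth and scaling.

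Among the abundant enzymes, early trypsin correlated with JHA15 at 0.78 and with chymotrypsin at 0.68, and chymotrypsin with JHA15 at 0.36. Late trypsin correlated with early trypsin at -0.42, and at -0.16 without 0 µM heme replicate 1. Outside the set, and leaving out the partner identifiers AAEL019480 and AAEL019596 that repeat the counts of chymotrypsin and early trypsin, 5526 genes with a mean of at least 5 CPM were compared over the 8 libraries. Those most like late trypsin were AAEL019431 (r = 0.977) and AAEL010716 (r = 0.974). For early trypsin they were AAEL028740 (r = 0.978) and AAEL028682 (r = 0.977), for chymotrypsin AAEL023223 (r = 0.958) and AAEL024675 (r = 0.911), and for JHA15 AAEL009313 (r = 0.97) and AAEL027777 (r = 0.962). None of these 8 genes was called between treatments (edgeR exact test, adjusted p = 0.703 to 1.0).

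Other enzymes of digestion were listed from names given to identifiers in the study. The list held 8 peptidases and 5 enzymes of carbohydrate or lipid digestion. Of these 13, 11 were tested and 1 was called, beside 4.63% of all genes. It was AAEL009853, named as a trypsin or serine protease, which was lower with heme. Its counts were 415, 471, 445 and 523 at 10 µM heme and 677, 657, 801 and 856 at 0 µM heme, without overlap. It averaged 8.82 ± 0.392 CPM at 10 µM and 14.0 ± 1.77 CPM at 0 µM heme (SD, n = 4 each). The log2 fold change was -0.67 ± 0.10 (SE, 4 libraries per group; edgeR's exact test, adjusted p = 0.00054), and it was called in all 21 alternative fits.

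The other peptidases gave no call. AAEL002276, a putative serine protease, had counts of 3 to 11 at 10 µM and 8 to 20 at 0 µM heme and a log2 fold change of -1.05 (edgeR exact test, adjusted p = 0.155). AAEL002273, a putative trypsin, had counts of 9 to 17 at 10 µM and 13 to 24 at 0 µM heme (adjusted p = 0.745). The zinc metalloprotease AAEL012774 had a log2 fold change of 0.48 (adjusted p = 0.24). Its groups did not overlap in CPM, if narrowly, at 2.24 or more at 10 µM and 2.23 or less at 0 µM heme. With AAEL009853, which went the other way, this made 2 of the 11 tested, beside 10.2% of all genes. Over the 11 tested the median log2 fold change was -0.08, against 0.02 over all genes. The alpha-amylase AAEL010536 and the pancreatic-type lipase AAEL014551, with counts of at most 11 and 2 in any library, were too low to be tested.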

How the data were processed

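The members and gene lists were chosen with earlier results of these data known. PolyA RNA was sequenced by the authors as single-end reads of 75 bases, which per the study's methods were aligned to AaegL5 with HISAT2 2.1.0, filtered at a mapping quality of 10 and counted per transcript with BEDtools 2.19.1. The handling of strand and of reads over several transcripts was not given in the sources used here. Deposited values are raw counts: the table holds the counts of the authors per identifier for each replicate, without normalization.

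All 8 libraries were compared with the exact test of edgeR 4.0.16 (R 4.3.3), as in the study, after filterByExpr and TMM scaling, two-sided with Benjamini-Hochberg adjustment over 11095 genes. The SE is that of the difference of group means of log2 CPM (prior count 2). The log2 fold change beside it is edgeR's own estimate, which can differ from that difference where replicates vary widely. Intervals are from limma 3.58.1 voom with quality weights. Identifiers were taken as sharing counts when they agreed within 2% in every library at 20 or more counts. In data simulated with 200 genes changed 2-fold (10960 genes tested, 3 draws), 13.3% of exact test calls were false.

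Genes named are all members, the 2 most correlated genes for each of 4 members, and called genes of the enzyme list, to which 3 uncalled peptidases and the 2 untested enzymes were added after their values were seen. Alternatives were the edgeR quasi-likelihood test with and without a replicate block, DESeq2 1.42.0, limma-voom, other scalings and filters, and leaving out libraries or identifiers. Lists that need gene names were not used. The run AAEL018664 to AAEL018689, left out in an alternative, was picked by its identifiers, whose names could not be looked up. Replicates are separate pools, so p-values measure the spread between pools.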

Additional observations from a re-analysis of the deposited data

Results flagged for a closer look

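Among 28 sets of 4 replicate values, 3 contained a library standing off from the rest by more of the range than Dixon's test allows at 95%. About 1.4 such cases are due by chance alone. AAEL007432 had 129 CPM in 0 µM heme replicate 3, against 4.29 to 12.8 CPM in the other 0 µM libraries. Early trypsin had 71456 CPM in 0 µM heme replicate 1, against 63097 to 63533 CPM. AAEL009853 had 11.4 CPM in 0 µM heme replicate 2, against 14.7 to 15.1 CPM. The cause of these values was not tested.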

How the results depend on the processing

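Leaving out AAEL019596 as well as AAEL019480, and leaving out replicate 1 of both groups, were chosen after seeing the data. The quasi-likelihood test called 316 genes in place of 514, and fits without a single library called 333 to 549. Scaling by library totals called 442 genes, 142 of them higher, against 246 of 514 under TMM. The members called numbered 0 in 19 of 21 alternatives, and 1 without 0 µM heme replicate 3 and 1 without 0 µM heme replicate 4, so that single libraries gave 0 to 1.

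The sign changed in at least 1 alternative for 6 members, none of them called with all libraries. Leaving out 0 µM heme replicate 1 with 10 µM heme replicate 2 gave log2 fold changes of 0.01 for early trypsin, -0.01 for chymotrypsin, 0.08 for JHA15, -0.02 for AAEL010196 and -0.0036 for AAEL013712. Chymotrypsin was at -0.08 with library totals, where the median of all genes was -0.07, and at -0.03 without replicate 1 of both groups. Limma-voom gave 0.01 for JHA15 and 0.86 for AAEL007432. Without single libraries the ranges were -0.17 to 0.03 for early trypsin, -0.04 to 0.09 for chymotrypsin, -0.12 to 0.05 for JHA15, 0.49 to 1.10 for late trypsin, 0.18 to 0.71 for AAEL010196, 0.07 to 0.57 for AAEL013712 and -0.81 to 1.76 for AAEL007432, the last at 1.76 without 0 µM heme replicate 3. AAEL010202 stayed above 0 in all 21 alternatives (0.83 to 1.46, adjusted p = 0.0678 to 0.585), as did late trypsin (0.42 to 1.10, adjusted p = 0.0387 to 0.593). AAEL009853 was between -0.76 and -0.62 (adjusted p = 9.49e-06 to 0.0291). The cause of these differences was not tested.

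The mean share of the 8 genes was 16.1% at 10 µM and 17.4% at 0 µM heme. It was 17.6% and 19.1% of a total without AAEL019480 and 18.9% and 20.7% without both partners. Without chymotrypsin it was 7.47% and 8.26%, without overlap. All 8 genes took 16.6% and 17.4% of a total without the run AAEL018664 to AAEL018689, and 16.7% and 16.8% as TMM-scaled CPM, nearly equal.

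Libraries were not treated as paired by replicate number, since the labels name no shared batch and deviations of same-numbered libraries correlated across genes at 0.515, 0.0702, 0.0616 and 0.157 for replicates 1 to 4. Adding a replicate block to the quasi-likelihood fit called 725 genes in place of 316, and 0 members. With the block the log2 fold changes were 0.94 for late trypsin (adjusted p = 0.0981), 1.19 for AAEL010202 (adjusted p = 0.0909) and 0.70 for AAEL007432 (adjusted p = 0.476).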
